A study of Mus musculus with 12 samples.

Results

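Estrogen receptor alpha (ERα), the product of Esr1, was mapped by ChIP-seq in mouse mammary glands that carried wild-type Esr1 (WT) or Esr1 with the substitution Y541S. The comparison used the 4 ERα samples of these genotypes, 2 replicates of each, out of 12 samples in the series. Each came with 1 list of peaks. The 4 lists of the progesterone receptor (PR) in the same genotypes served only as a second readout, and the 4 samples of the D542G genotype were not analysed here. All mice were raised to 8 weeks and then carried implants of estradiol and progesterone (E2+P4) for 4 days before the glands were taken; this treatment was common to both genotypes. The labels do not give zygosity, sex, strain or the number of animals in a replicate. The tissue is labelled as whole mammary gland, while the title of the series speaks of luminal cells. Whole glands also contain basal, fat, stromal, vascular and immune cells, and a peak does not show which of them it came from. Fewer cells with bound receptor and less receptor bound per cell cannot be told apart in such material. The Esr1 genotype cannot be checked from peak positions.

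ERα is a ligand-activated transcription factor that binds estrogen response elements, palindromes of a short arm, and also reaches chromatin through partner factors such as AP-1. In the mammary gland it is found mainly in hormone-sensing luminal cells, where it drives Pgr and paracrine signals. The substituted tyrosine lies in the ligand-binding domain, and its human counterpart is recurrently mutated in endocrine-resistant breast cancer, where the mutant receptor is known for activity without estrogen. In the present glands estrogen was supplied to both genotypes.

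Peaks that overlapped by at least 1 bp were merged over the 4 lists into regions. A region is called Y541S-only when both Y541S lists and neither WT list held a peak there, WT-only when it was the other way round, and shared when all 4 lists held one. These classes were formed from the whole lists and again from the 20000 strongest peaks of each list, ranked by the deposited −log10 p. Only the second set compares lists of equal length, and it is meant below unless the whole lists are named.

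Promoter sequences are shown first for genes with class members at their starts, because no other sequence of the regions was at hand. They are RefSeq sequences of GRCm38.p6, the assembly of mm10. Of the 32817 promoter windows of 300 bp, 23 (0.07%) held the full estrogen response element, that is GGTCA followed after any 3 bases by its reverse complement. It occurred in 2 of 3956 windows with a shared region, 0 of 566 with a Y541S-only region and 2 of 90 with a WT-only region. Over the whole lists it occurred in 4 of 8674, 1 of 695 and 0 of 63 such windows, so the order of the genotype-specific classes turned. The 29 bases around these 4 elements follow, with the repeated arms in capitals. The first pair belongs to windows with shared regions (Gm31295 at chr4:136387240-136387539, plus strand, and Gm34323 at chr9:120601620-120601919, plus strand). The second pair belongs to WT-only regions (Gm35041 at chr12:76972679-76972978, plus strand, and Gm4606 at chr14:72863444-72863743, minus strand).
Gm31295: ctatattgGGTCAtgaTGACCttggcgac
Gm34323: tggccacaGGTCAttaTGACCaactaaca
Gm35041: ttcccgcaGGTCAgacTGACCccccgggc
Gm4606: gagaaattGGTCAagaTGACCttcaatgt

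The region at Gm31295 ranked 804 and 1029 in the WT lists and 905 and 667 in the Y541S lists, replicates 1 and 2 in that order here and below. The region at Gm34323 ranked 3454 and 1715 in WT and 1524 and 2476 in Y541S. The WT-only region at Gm35041 ranked 14513 and 3171 in WT and 89075 and 21902 in the longer Y541S lists. A match describes the letters in the window and does not show where the receptor sat.

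Next come the 250 bases upstream of 4 genes with a Y541S-only region at the start (midpoint within 1 kb), shown because results below turn on them: Stat5a, a transcription factor of prolactin signalling (chr11:100859406-100859655, plus strand), Osbpl2, a lipid-binding protein gene (chr2:180119056-180119305, plus strand), Lztfl1, a regulator of ciliary protein traffic (chr9:123717626-123717875, minus strand), and Atad5, a gene of DNA replication (chr11:80089150-80089399, plus strand). The motifs searched on both strands were the full element, a single arm with its flanking base (AGGTCA), the AP-1 motif (TGACTCA), the forkhead motif (TGTTTAC), the GATA motif (AGATAA), and the NFI and progestin or glucocorticoid elements. Letters in capitals mark the matches.
Stat5a: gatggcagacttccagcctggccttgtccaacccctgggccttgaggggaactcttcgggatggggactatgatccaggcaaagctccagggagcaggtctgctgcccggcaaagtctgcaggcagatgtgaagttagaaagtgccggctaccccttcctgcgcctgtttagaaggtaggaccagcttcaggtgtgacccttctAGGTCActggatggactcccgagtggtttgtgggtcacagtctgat
Osbpl2: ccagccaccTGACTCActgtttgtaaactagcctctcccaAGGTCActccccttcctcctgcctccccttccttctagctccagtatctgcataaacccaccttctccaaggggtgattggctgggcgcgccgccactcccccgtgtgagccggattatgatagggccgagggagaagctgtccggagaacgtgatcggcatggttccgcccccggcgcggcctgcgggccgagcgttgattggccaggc
Lztfl1: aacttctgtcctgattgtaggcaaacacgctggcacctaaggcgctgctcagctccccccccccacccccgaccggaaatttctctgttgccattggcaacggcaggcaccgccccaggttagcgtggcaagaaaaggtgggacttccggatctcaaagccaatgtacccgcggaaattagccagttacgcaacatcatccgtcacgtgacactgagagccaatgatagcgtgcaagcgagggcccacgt
Atad5: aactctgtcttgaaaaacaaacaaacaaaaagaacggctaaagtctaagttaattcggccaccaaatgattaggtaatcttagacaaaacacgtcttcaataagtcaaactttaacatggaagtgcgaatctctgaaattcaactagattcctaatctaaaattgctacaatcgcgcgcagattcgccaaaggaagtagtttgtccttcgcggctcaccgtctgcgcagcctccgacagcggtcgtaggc

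The Stat5a stretch held 1 single arm, the Osbpl2 stretch 1 single arm and 1 AP-1 match, and those of Lztfl1 and Atad5 none of the motifs. The arm in the Stat5a stretch lay beyond the end of the Y541S-only region there. Over all promoter windows 16.3% held a single arm, against 12.3% of windows with a shared region (95% Wilson interval 11.3 to 13.4%), 11.5% with a Y541S-only region (9.11 to 14.4%) and 17.8% with a WT-only region (11.2 to 26.9%). The AP-1 motif stood in 5.20% of all windows, 2.98% of those with a shared, 4.77% with a Y541S-only and 6.67% with a WT-only region. The intervals of the Y541S-only and WT-only windows overlapped for the single arm, and so did those for AP-1 (3.30 to 6.85% and 3.09 to 13.8%). For whole-list classes the single arm stood in 11.9% of windows with a shared, 12.1% with a Y541S-only and 14.3% with a WT-only region, and AP-1 in 3.25%, 5.61% and 4.76%. The GATA motif stood in 11.2% of all windows. Among the 20000 strongest peaks it stood in 4.95% of windows with a Y541S-only region (3.44 to 7.06%) and 7.78% with a WT-only region (3.82 to 15.2%). Over the whole lists the shares were 6.76% (5.12 to 8.88%) and 19.0% (11.2 to 30.4%, 12 of 63 windows), and these intervals did not overlap. In windows of 100 bp the whole-list shares were 1.73% (0.990 to 2.99%) and 3.17% (0.875 to 10.9%, 2 of 63 windows), and the intervals overlapped. The whole-list GATA intervals in 300 bp windows were the only Y541S-only and WT-only pair without overlap. All motifs, both sets of lists and both window sizes were compared, without adjustment for their number. GATA stood in 4.70% of 300 bp windows with a shared region among the strongest peaks and 5.18% over the whole lists.

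The Y541S lists were longer. The numbers of peaks were 72566 and 64488 for WT, compared with 106926 and 105612 for Y541S, a difference of 0.64 in mean log2 number, the 2 Y541S libraries lying above both WT libraries (two-sided exact permutation p = 0.33, the smallest that 2 against 2 libraries allow). The same difference was 0.56 within replicate 1 and 0.71 within replicate 2. Background coverage, the fragment depth expected where there is no peak, recovered from the deposited values, was 2.387 and 1.303 in WT and 2.287 and 1.716 in Y541S, so depth differed more between replicate numbers than between genotypes. With summit coverage scaled to the shallowest library, the lists held 60932 and 64488 peaks for WT, compared with 87483 and 95050 for Y541S, and the difference was 0.54 (exact permutation p = 0.33). At −log10 p of at least 5 they held 37051 and 27281 peaks for WT, compared with 48996 and 37161 for Y541S. The difference was then 0.42 (exact permutation p = 0.33), and WT replicate 1 and Y541S replicate 2 were nearly equal. The part of precipitation efficiency in the list lengths was not tested.

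The strongest ERα regions were the same loci in both genotypes. Of 40000 regions from the 20000 strongest peaks, 7065 (17.7%) were shared, 1445 (3.61%) were Y541S-only and 697 (1.74%) were WT-only. The counts of the last 2 classes depend on having 2 libraries for each genotype: without WT replicate 1 they were 3588 and 7514, without WT replicate 2 they were 2805 and 5473, without Y541S replicate 1 they were 6562 and 1954, and without Y541S replicate 2 they were 5113 and 1345. A genotype with 1 library needs no second peak to enter its class, so it always had more regions there. In the whole lists there were 219945 regions, of which 19612 (8.92%) were shared, 9843 (4.48%) Y541S-only and 1385 (0.63%) WT-only. By its worst rank in the 4 lists, the leading region lay within Zfp827, a zinc finger gene (chr8:79114130-79115267), at ranks 3 and 6 in WT and 2 and 4 in Y541S. A region 169 kb from Rybp, a Polycomb component gene (chr6:100059486-100060542), ranked 7 and 1 in WT and was first in both Y541S lists. Regions within Arhgap40, Ccdc6 and Bnc2 and near Parn and Tprg also ranked within the first 19 peaks of every list.

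Pgr and Greb1 carried strong ERα regions in every library. Pgr, the progesterone receptor gene and a direct ERα target, had 3 shared regions and no genotype-specific one. The strongest, 1.90 kb outside Pgr (chr9:8970080-8970942), ranked 125 and 104 in WT and 57 and 69 in Y541S, both Y541S ranks nearer the top. Greb1, an estrogen-induced growth gene, had 6 shared regions, 1 Y541S-only and 1 WT-only. Within Greb1 the region chr12:16760237-16760858 ranked 96 and 36 in WT and 77 and 34 in Y541S, so the genotypes overlapped. The Y541S-only region linked to Greb1, 27.5 kb away (chr12:16828414-16829285), ranked 8985 and 9213 in Y541S and 24787 and 60181 in WT. The WT-only one, 16.9 kb away (chr12:16653492-16654020), ranked 6520 and 19658 in WT and 27406 and 21865 in Y541S. The Y541S-only region was closest to E2f6. The WT-only region was closest to Lpin1 and lay 0.286 kb from a gene start.

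Among the mammary paracrine genes, Areg, which encodes an EGF receptor ligand, had no region among the 20000 strongest peaks of any library. Tnfsf11, the gene of RANKL, had 2 regions, neither of them shared nor genotype-specific. The better one, 39.0 kb away (chr14:78346903-78347181), ranked 18002 and 5565 in WT and 14260 and 57001 in Y541S, again with overlap. Wnt4, a ligand of ductal side branching, had 8 regions, none of them in a defined class. At Esr1 itself 2 regions were shared, 1 was Y541S-only and 1 WT-only. The WT-only region, 22.2 kb from Esr1 (chr10:4589700-4589933), ranked 3297 and 8741 in WT with summit coverage of 37 and 14 fragments, and neither whole Y541S list held a peak there. The neighbouring shared region at chr10:4590933-4591510 ranked 1988 and 4057 in WT and 1490 and 2746 in Y541S. The Y541S-only region within Esr1 (chr10:4621214-4621873) ranked 14255 and 12923 in Y541S, against 38355 and 62422 in WT.

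The Y541S-only regions with the best ranks, ordered by the worse of the 2 Y541S ranks, lay near genes of several kinds, and 8 of the 10 best had a weaker peak in both whole WT lists. The first lay 93.4 kb from Apob, the apolipoprotein B gene (chr12:8109786-8110730), at ranks 2288 and 2741 in Y541S and 22615 and 46946 in WT. Its summit coverage was 43 and 28 fragments in Y541S and 19 and 7 in WT. A region within Pkhd1, the fibrocystin gene (chr1:20409822-20410644), ranked 3735 and 3828 in Y541S and 21177 and 23176 in WT.

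The region 38.5 kb from Irs2, an insulin receptor substrate (chr8:10945711-10946627), ranked 3911 and 1776 in Y541S and 30772 and 22494 in WT. That 64.3 kb from Epcam, an epithelial adhesion molecule (chr17:87571307-87571958), ranked 3918 and 2632 in Y541S and 25521 and 23086 in WT. Both regions thus had a weaker peak in both WT lists.

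At gene starts, the region over the Atad5 promoter shown above (chr11:80089124-80089933) ranked 3068 and 5180 in Y541S and 48345 and 52893 in WT, with deposited fold enrichments of 8.09 and 6.0 against 2.98 and 2.86. The region over the Osbpl2 promoter (chr2:180118687-180119606) ranked 4399 and 5176 in Y541S and 20660 and 48753 in WT. That at Lztfl1 (chr9:123717364-123718119) ranked 4502 and 3717 in Y541S and 29635 and 20699 in WT, its second WT rank lying close to the limit. The remaining 3 lay within Lmtk3, 46.8 kb from Irf2bpl and 83.1 kb from Sec61g.

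**Figure D1:**
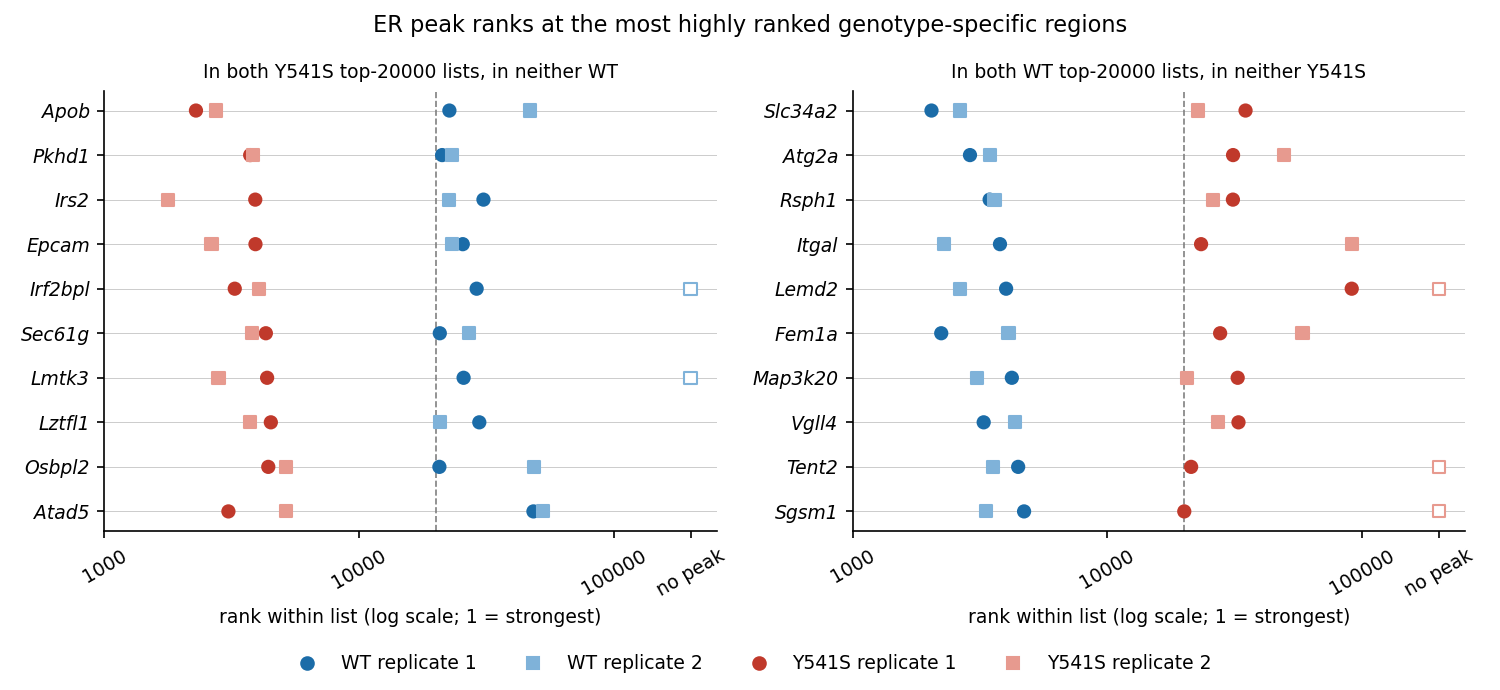
Rank of the ERα peak in each library (log scale, 1 is the strongest, open symbols at the right mark no peak) at the 10 best-ranked Y541S-only regions (left) and WT-only regions (right), named by the closest coding gene. The dashed line is rank 20000, which defined the classes, so the separation is by construction, and most regions carried a weaker peak in the other genotype.

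WT-only regions were fewer. The 2 WT lists also shared fewer regions of any class with each other, 9677 against 12004 for the Y541S lists. The first WT-only region, 60.9 kb from Slc34a2, a phosphate transporter gene (chr5:52988250-52988613), ranked 2040 and 2647 in WT and 34877 and 22665 in Y541S. Its summit coverage was 39 and 15 fragments in WT and 12 and 11 in Y541S. A region within Atg2a, an autophagy gene (chr19:6243202-6243550), ranked 2889 and 3473 in WT and 31156 and 49240 in Y541S. The other 8 lay within or near Rsph1, Itgal, Lemd2, Fem1a, Map3k20, Vgll4, Tent2 and Sgsm1. Near Itgal, the integrin gene of leukocytes (chr7:127337587-127337946), ranks were 3789 and 2284 in WT and 23335 and 91274 in Y541S.

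Genotype-specific regions among the strongest peaks were mostly weaker, not missing, in the other genotype. Of the 1445 Y541S-only regions, 715 (49.5%) had a peak in both whole WT lists, 567 in 1 of them and 163 (11.3%, 95% Wilson interval 9.751 to 13.02%) in neither. Of the 697 WT-only regions, 423 (60.7%) had a peak in both whole Y541S lists, 229 in 1 and 45 (6.46%, 4.86 to 8.53%) in neither. The Y541S lists were longer and so could hold weaker peaks. Where a WT peak was present, its median rank at Y541S-only regions was 31449.5 in replicate 1 and 33992 in replicate 2. The median Y541S ranks at WT-only regions were 31095 and 34951.5.

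No region near the top of the lists was particular to a genotype by presence. Of 778 regions within the first 1000 peaks of both Y541S lists, 0 lacked a peak in both WT lists, which allows a share of up to 0.386%, and 776 were among the 20000 strongest peaks of both. Of 2732 regions within the first 5000 peaks of both Y541S lists, 0 lacked a WT peak and 8 were outside the 20000 strongest of both WT lists. In the reverse direction 2593 WT regions gave 0 and 12. These limits cover counting error only.

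Regions with no peak at all in the other genotype therefore began lower in the lists. By the worse of their 2 ranks, the first of them in Y541S lay within Plxnd1, a semaphorin receptor gene (chr6:115995017-115995373), at ranks 5333 and 6296 with summit coverage of 34 and 24. One 140 kb from Krr1 ranked 6471 and 1238. Others lay near Atp13a2, Kl and Gm8439 and at Eif4ebp2, a gene of translational control (chr10:61452702-61452961), at ranks 8429 and 7246. In WT they lay within Thsd7a (chr6:12376175-12376562), at ranks 2812 and 5367, near Gm46240, Esr1 and Whrn, and within Sytl5 and Usf2. Absence from a list means no peak past the deposited threshold and not a measured absence of binding.

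Within the 7065 shared regions, the ranks of the genotypes were compared with limma on log2 rank. With Benjamini-Hochberg adjustment, 0 regions (0.0%) passed 0.05 as nearer the top in Y541S and 0 (0.0%) as farther from it. The smallest adjusted p was 0.99997. At an unadjusted p under 0.05 there were 141 regions nearer the top and 125 farther, together 3.77% of those tested. When 1 library was left out, the sum of both counts ran from 101 without Y541S replicate 2 to 574 without Y541S replicate 1. Both Y541S ranks were nearer the top than both WT ranks at 1297 regions (18.4%), and both were farther at 961 (13.6%). Of all splits of 4 libraries into 2 against 2, a share of 0.33 separates the values fully in one direction or the other. Full separation of ranks or widths at a region therefore does not by itself show a genotype difference.

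The regions with the smallest p-values are given as values. At the start of Gnb1l, a G protein subunit-like gene (chr16:18498329-18499204), ranks were 12073 and 18829 in WT and 2953 and 1645 in Y541S, a log2 difference of −2.77 (SE 0.80, limma with Benjamini-Hochberg adjustment, adjusted p = 0.99997). Near the top of the lists, a region 261 kb from Gm10573 (chr4:122039177-122039901) ranked 223 and 450 in WT and 76 and 21 in Y541S. The region closest to Gata3, the gene of a luminal transcription factor, lay 824 kb from it (chr2:9032427-9032881) and ranked 14613 and 15684 in WT and 4978 and 1178 in Y541S. Regions at or within Col24a1, Tmem183a, Gin1, Lpp, Rae1, Rapgef6 and Timm50 made up the other 7.

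In the opposite direction, the region within Ktn1, the kinectin gene (chr14:47651365-47651782), ranked 1819 and 710 in WT and 7945 and 14712 in Y541S, a log2 difference of 3.25 (SE 0.83, same test, adjusted p = 0.99997). A region 4.44 kb from Ide, the insulin-degrading enzyme gene (chr19:37263774-37264824), ranked 2157 and 2113 in WT and 18527 and 12125 in Y541S. One 113 kb from Gadd45a, a stress-response gene (chr6:67150331-67150862), ranked 1064 and 1038 in WT and 4271 and 13421 in Y541S. The others lay within or near Dlgap1, B4galt5, Dctn3, Glis1, Fyb2, C1galt1c1 and Dnajc17. Of the 10 regions nearer the top in Y541S 6 were at a gene start, and of the 10 farther from it 0 were, against 40.2% of all shared regions.

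**Figure D2:**
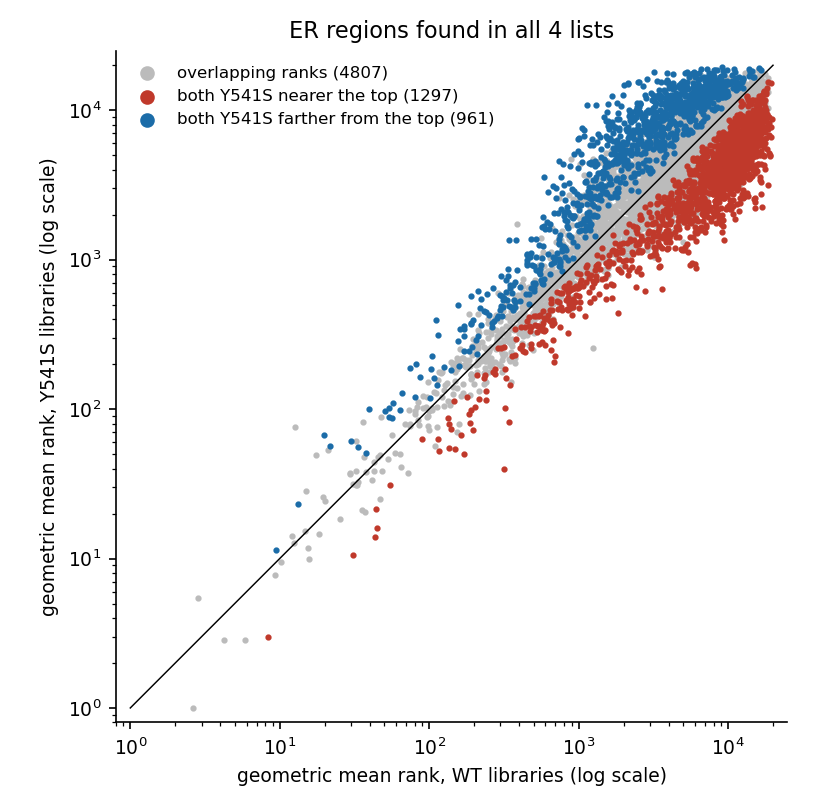
Geometric mean rank of the ERα peak in the 2 WT libraries (x axis) and the 2 Y541S libraries (y axis), both on log scales, at the 7065 shared regions. Red points (1297) have both Y541S ranks nearer the top than both WT ranks, blue points (961) the reverse, and grey points overlap. No region passed the adjusted threshold, and separation of 2 against 2 libraries does not by itself show a genotype difference.

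Regions at gene starts and elsewhere differed in these counts. Of 2756 shared regions at a gene start (midpoint within 1 kb), both Y541S ranks were nearer the top at 23.1% and farther at 8.09%. Of 4101 shared regions elsewhere the values were 15.3% and 17.3%. Median ranks at gene starts were 9672.5 and 5838 in WT and 7417.5 and 4764 in Y541S. Those elsewhere were 2793 and 3519 in WT and 2891 and 4361 in Y541S. Within each replicate number the start regions stood nearer the top in Y541S and the others farther from it. At starts the replicates of each genotype lay farther apart than the genotypes within a replicate number.

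The share of peaks at gene starts changed direction with the length of the list. In the whole lists 15.6% and 16.6% of WT peaks and 11.7% and 11.7% of Y541S peaks lay within 1 kb of a start, a difference of −4.39 percentage points (two-sided exact permutation p = 0.33, the smallest possible). With peaks of −log10 p of at least 5 the difference was −1.27 points and the groups overlapped (exact permutation p = 0.67). Among the 20000 strongest peaks the shares were 23.1% and 28.4% in WT and 26.9% and 32.5% in Y541S, a difference of 3.93 points (exact permutation p = 0.67). There the groups overlapped, but Y541S was higher within replicate 1 by 3.76 points and within replicate 2 by 4.10 points. Leaving out WT replicate 1 gave a difference of 1.28 points and leaving out Y541S replicate 2 one of 1.11 points, whereas it was 6.58 points when WT replicate 2 was dropped and 6.75 when Y541S replicate 1 was. Among the 5000 strongest peaks the shares were 10.2% and 33.5% in WT and 19.4% and 41.0% in Y541S, so the replicates of one genotype were farther apart than the genotypes. At 60000 peaks the difference was −0.40 points. The longer Y541S lists thus added mostly peaks away from starts, while their stronger peaks held more starts than WT within each replicate number. Gene starts were known for 17492 of 21887 coding genes, and none on chromosome 18. Peaks and regions on that chromosome were left out of all shares at gene starts, which leaves 6857 of the 7065 shared regions, and the missing starts of other chromosomes make these shares lower limits.

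**Figure D3:**
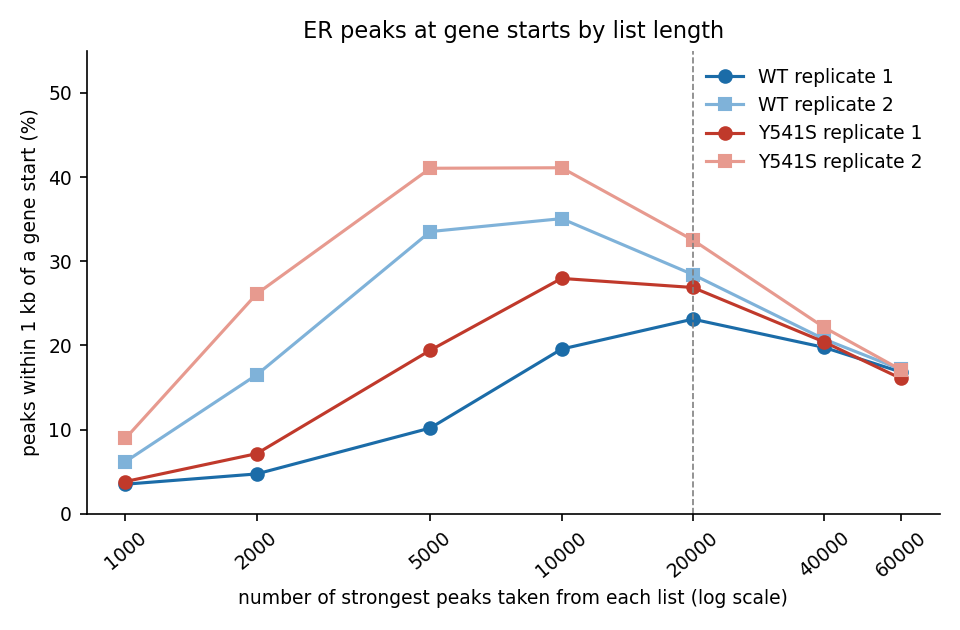
Share of ERα peaks within 1 kb of a gene start (y axis, percent) among the given number of strongest peaks of each list (x axis, log scale), 1 line per library. Within each replicate number Y541S lies above WT up to 40000 peaks, and both replicate 2 libraries lie above both replicate 1 libraries at every number shown.

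Peaks lying outside coding genes were somewhat more frequent in Y541S. The shares in the whole lists were 43.7% and 43.2% in WT and 46.2% and 46.7% in Y541S. Among the 20000 strongest peaks they were 47.8% and 46.2% in WT and 49.6% and 48.7% in Y541S, a difference of 2.18 points (exact permutation p = 0.33, the smallest possible). The genotypes did not overlap in either set.

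By class, 40.2% of shared regions lay at a gene start (95% Wilson interval 39.0 to 41.4%), 31.4% of Y541S-only regions (29.1 to 33.9%) and 11.0% of WT-only regions (8.88 to 13.6%). In all regions found in other combinations of libraries the share was 16.0%. In the whole lists the order of the genotype-specific classes turned, with 7.92% of Y541S-only (7.40 to 8.48%) and 10.7% of WT-only regions (9.12 to 12.4%) at a start. In the classes of the strongest peaks, genotype-specific regions were not mainly satellites of shared ones. There 11.5% of Y541S-only and 12.2% of WT-only regions lay within 10 kb of a shared region, against 10.6% of the regions in other combinations. In the whole lists the shares were 23.1% of Y541S-only (22.3 to 23.9%), 33.4% of WT-only (30.9 to 35.9%) and 23.0% of other regions. WT-only regions of the whole lists thus lay near a shared region more often than the rest.

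Peaks of the Y541S lists were wider beyond the top of the list. Median width over the 20000 strongest peaks was 427 and 359 bp in WT and 484 and 495 bp in Y541S, a difference of 96.5 bp (two-sided exact permutation p = 0.33, the smallest possible), with 57 bp within replicate 1 and 136 bp within replicate 2. Among the first 1000 peaks the medians were 656.5 and 532 bp in WT and 554 and 562.5 bp in Y541S, and the groups overlapped. Between ranks 5000 and 20000 they were 390 and 310 bp against 462 and 450 bp, without overlap. In the whole lists the medians were 262 and 242 bp in WT and 264 and 251 bp in Y541S, with overlap and a difference of 5.50 bp. With peaks of −log10 p of at least 5 the difference was 50 bp and the groups did not overlap (exact permutation p = 0.33). The 20000 strongest peaks made up 27.6% and 31.0% of the WT lists but 18.7% and 18.9% of the Y541S lists, and their −log10 p at rank 20000 was 6.89 and 5.44 in WT and 8.39 and 6.92 in Y541S. Equal ranks therefore did not mean equal strength.

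**Figure D4:**
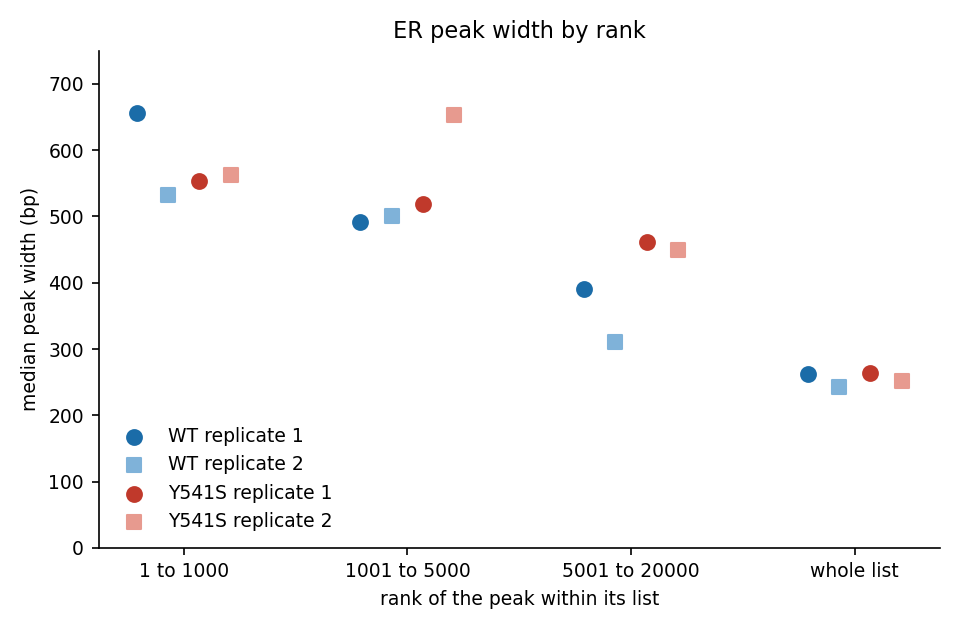
Median width of ERα peaks (y axis, bp) by rank interval and in the whole list, 1 symbol per library. The Y541S libraries lie above both WT libraries in the intervals from rank 1000 to 5000 and from 5000 to 20000, and among the first 1000 peaks and in the whole lists the genotypes overlap.

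At the 7065 shared regions the median width was 591 and 524 bp in WT and 627 and 627 bp in Y541S. limma on log2 width with Benjamini-Hochberg adjustment called 0 regions (0.0%) wider and 0 (0.0%) narrower in Y541S, with a smallest adjusted p of 0.551. At an unadjusted p under 0.05 there were 422 wider and 55 narrower regions. Leaving out WT replicate 1 gave 995 wider and 75 narrower regions, and leaving out WT replicate 2 gave 602 and 206. Leaving out Y541S replicate 1 gave 235 and 62, and leaving out Y541S replicate 2 gave 208 and 30. Both Y541S widths exceeded both WT widths at 1925 regions (27.2%) and fell below both at 707 (10%). With all whole-list peaks of a region the shares were 24.8% and 10.9%, and with its widest single peak 28.3% and 9.85%. The excess of wider regions was larger at gene starts, where 38.2% of shared regions were wider and 4.50% narrower, than elsewhere, with 19.7% and 13.6%.

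Among the regions with the smallest p for width, that at the start of Rtraf, an RNA-binding protein gene (chr14:19823601-19824600), measured 245 and 259 bp in WT and 677 and 1000 bp in Y541S. A region at the start of Pik3ca, the gene of a PI3 kinase catalytic subunit (chr3:32396022-32397270), measured 405 and 293 bp in WT and 1159 and 1026 bp in Y541S. When weaker peaks of the whole lists were included, the second WT value at Pik3ca became 1085 bp and the groups overlapped, while the values at Rtraf did not change. The same held at the start of Xbp1, a direct ERα target (chr11:5520682-5522220): 283 and 345 bp in WT and 1539 and 1414 bp in Y541S became 1290 and 1461 bp against 1539 and 1414 bp with the weaker peaks, which are separate peaks in the WT lists. Psme1 and Cemip2 completed the 5 wider regions.

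Of the narrower regions, that within Med24, a Mediator subunit gene (chr11:98709308-98710045), measured 655 and 704 bp in WT and 328 and 344 bp in Y541S. One 51.3 kb from Opa1, a mitochondrial fusion gene (chr16:29713861-29715057), measured 1197 and 767 bp in WT and 419 and 395 bp in Y541S, at ranks 536 and 981 against 613 and 524. The values at Med24 and near Opa1 and Ajuba were the same with the weaker peaks, whereas those at Wdfy2 and Chka then overlapped. None passed the adjusted threshold, and the region near Opa1 had an adjusted p of 0.661 (limma, Benjamini-Hochberg).

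PR gave a readout that had not defined the ERα classes. A PR peak found in both Y541S PR lists overlapped 83.5% of shared, 82.7% of Y541S-only (95% Wilson interval 80.7 to 84.6%) and 54.2% of WT-only ERα regions (50.5 to 57.9%). For peaks in both WT PR lists the values were 74.5%, 60.1% (57.6 to 62.6%) and 46.2% (42.5 to 49.9%). Among the strongest ERα peaks, Y541S-only regions were thus more often PR-occupied than WT-only regions in both genotypes. For whole-list ERα classes, peaks of both Y541S PR lists overlapped 38.7% of Y541S-only and 30.8% of WT-only regions. Peaks of both WT PR lists there overlapped 21.3% (20.5 to 22.1%) and 22.2% (20.1 to 24.4%), and these intervals overlapped. In the classes of the strongest peaks the order remained away from gene starts, where a PR peak of both Y541S lists overlapped 77.8% of Y541S-only and 50.4% of WT-only regions. It depended on the length of the PR lists: against PR peaks among the 20000 strongest of both Y541S lists the shares were 16.4% and 17.9%, and against those of both WT lists 15.6% and 20.5%. Among the 10 best-ranked Y541S-only regions, 8 overlapped a PR peak of both WT lists and 10 one of both Y541S lists. Among the 10 best-ranked WT-only regions the counts were 5 and 3.

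Genes were linked to every region with its midpoint within 50 kb, so a linked gene was not always the closest one. Of 21887 coding genes, 50.7% were linked to a shared region, 14.8% to a Y541S-only region and 5.82% to a WT-only region. In the whole lists the shares were 72.4%, 49.4% and 11.5%. In 14 lists of 238 genes in all, 55 genes (23.1%) were linked to a Y541S-only and 21 (8.82%) to a WT-only region. The lists were not tested as sets, genes near each other share regions, and gene-dense neighbourhoods have more chances of a link. With links of 10 kb the counts were 25 genes (10.5%, against 6.65% of all coding genes) and 4 (1.7%, against 2.67%). With only the closest coding gene linked they were 29 genes (12.2%, against 6.12%) and 20 (8.40%, against 2.94%), so the WT-only share lay below the background in one setting and above it in the other.

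**Figure D5:**
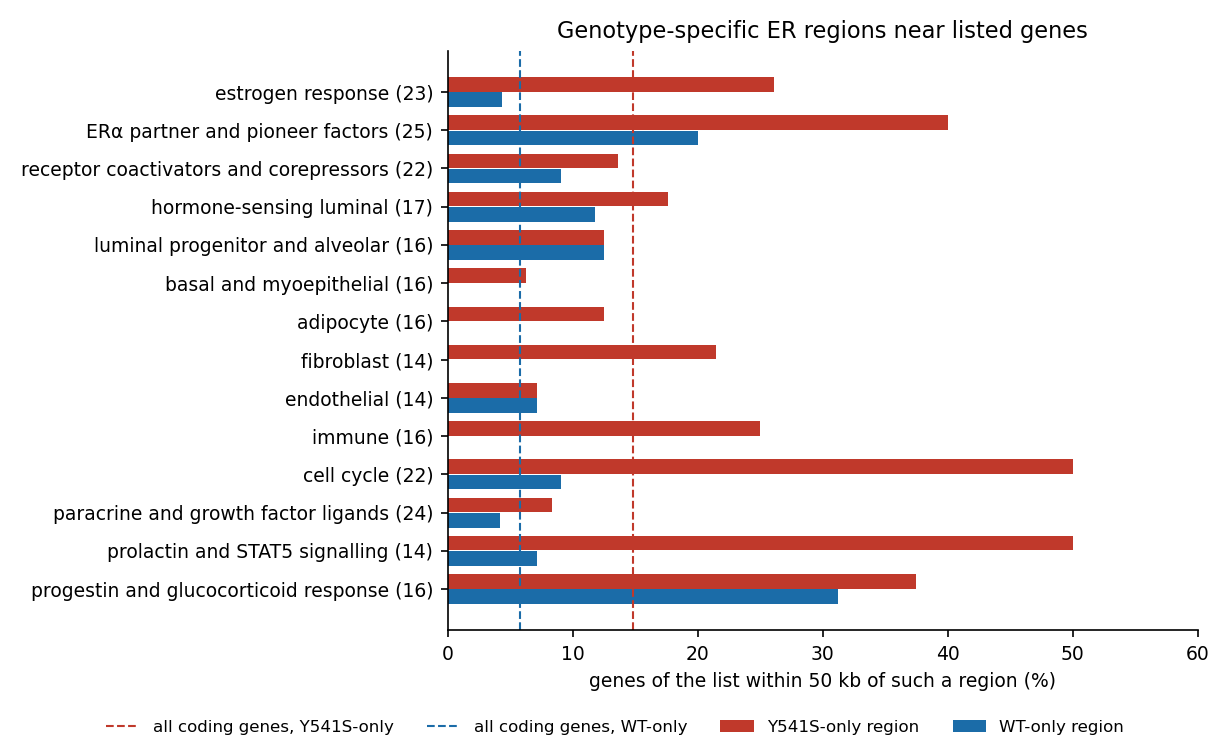
Share of the genes of each list (x axis, percent, number of genes in parentheses) within 50 kb of a Y541S-only region (red bars) or a WT-only region (blue bars) of the 20000 strongest ERα peaks. Dashed lines are the shares of all 21887 coding genes, 14.8% and 5.82%.

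Prolactin and STAT5 genes had Y541S-only regions at 7 of 14 members (50%), and a WT-only region at 1 (7.14%). The shares of all coding genes were 14.8% and 5.82%. Whole-list classes gave 71.4% and 21.4% of members, against 49.4% and 11.5% of all coding genes. Stat5a and Stat5b, which lie side by side and mediate the prolactin response of the gland, shared all 3 of their Y541S-only regions. The best of them lay within Stat5b (chr11:100855561-100856149) and ranked 5110 and 9264 in Y541S, with no peak in either whole WT list. The one over part of the Stat5a promoter shown above (chr11:100859050-100859570) ranked 16850 and 12561 in Y541S and 24832 in WT replicate 1, with no peak in WT replicate 2. Its summit coverage was 37 and 36 fragments in Y541S and 34 in WT replicate 1. This region ended before the single arm marked in that stretch. The strongest region of the pair was shared, at ranks 23 and 41 in WT and 14 and 8 in Y541S. Cish, a feedback inhibitor induced by STAT5, had a Y541S-only region 6.79 kb away (chr9:107289578-107290164) that ranked 8784 and 4384 in Y541S and 31697 and 48717 in WT. That region was closest to Mapkapk3 and lay 0.006 kb from a gene start. Jak2, the kinase of the prolactin receptor, had 2, one of them 0.612 kb from the gene (chr19:29250915-29251467) at ranks 12233 and 15674 in Y541S and 39778 and 35809 in WT.

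Cell cycle genes were linked to Y541S-only regions at 11 of 22 members (50%) and to WT-only regions at 2 (9.09%). The shares of all coding genes were 14.8% and 5.82%. Whole-list classes gave 63.6% and 9.09% of members, against 49.4% and 11.5% of all coding genes. Cdkn1b, the gene of the inhibitor p27, had 2 Y541S-only regions. The one 40.1 kb away (chr6:134880089-134880466) ranked 2846 and 8946 in Y541S and 25876 and 42075 in WT, and the one 3.06 kb away (chr6:134928286-134928892) ranked 9098 and 4235 in Y541S and 69102 and 29340 in WT. The first of these was closest to Crebl2. Cdc25a, a phosphatase that activates cyclin-dependent kinases, also had 2 Y541S-only regions, closest to Camp and Map4. Ccnd1, the cyclin D gene induced by estrogen, had 1 at 3.72 kb (chr7:144943303-144943800), at ranks 14214 and 18080 in Y541S and 49163 in WT replicate 1, with no peak in WT replicate 2. Ccne1, a cyclin E gene, had 1 at 36.8 kb, at ranks 13963 and 14347 in Y541S and 21872 and 40647 in WT.

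ERα partner and pioneer factor genes had a Y541S-only region at 10 of 25 members (40%) and a WT-only region at 5 (20%). The shares of all coding genes were 14.8% and 5.82%, and 50.7% for a shared region. Whole-list shares of these factor genes were 88% and 12%, against 49.4% and 11.5% of all coding genes. Grhl2, an epithelial transcription factor, had 2 Y541S-only regions. The one within Grhl2 (chr15:37232659-37233538) ranked 15679 and 19835 in Y541S and 55758 in WT replicate 1, with no peak in WT replicate 2. In the estrogen response list, 14 of 23 genes (60.9%) had a shared region, 6 (26.1%) a Y541S-only and 1 (4.35%) a WT-only region. With whole-list classes 60.9% had a Y541S-only and 21.7% a WT-only region. That WT-only share lay above the 11.5% of all coding genes, whereas the share among the strongest peaks lay below 5.82%. Igfbp4, an IGF-binding protein gene, had a Y541S-only region within it (chr11:99047023-99047434) at ranks 17103 and 10143 in Y541S and 20603 and 48370 in WT. That within Fhl2, a transcriptional cofactor gene, ranked 18154 and 19958 in Y541S, near the limit, and 48833 in WT replicate 2, with no peak in WT replicate 1. Progestin and glucocorticoid response genes were linked to both kinds, 6 of 16 (37.5%) to Y541S-only and 5 (31.25%) to WT-only regions. Over the whole lists 12 (75%) were linked to a Y541S-only and 1 (6.25%) to a WT-only region. The WT-only share there lay below the 11.5% of all coding genes, so its direction depended on the list length. Errfi1, a feedback inhibitor of EGF receptor signalling, had 1 of each: chr4:150909452-150910285 ranked 7655 and 3436 in Y541S and 22352 and 21554 in WT, and chr4:150837432-150838126 ranked 7398 and 17494 in WT and 29306 and 26996 in Y541S. The Y541S-only region lay 41.0 kb from Errfi1, closest to Park7 and 0.052 kb from a gene start. The WT-only region lay 16.0 kb away.

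Receptor coactivators and corepressors had a shared region at 20 of 22 members (90.9%), a Y541S-only region at 3 (13.6%) and a WT-only region at 2 (9.09%). The shares of all coding genes were 50.7%, 14.8% and 5.82%. Kat2b, an acetyltransferase gene, had a Y541S-only region within it (chr17:53569694-53570653) at ranks 11530 and 8297 in Y541S and 32965 and 22036 in WT. Paracrine and growth factor genes had Y541S-only regions at 2 of 24 members (8.33%), Wnt7b and Fgf2. The region linked to Fgf2 lay 36.1 kb away and was closest to Cetn4. A WT-only region was linked to 1 member (4.17%), Igf1, 45.8 kb away, at ranks 15421 and 9963 in WT and 70733 and 54805 in Y541S. With whole-list classes the Y541S-only shares were 75% of paracrine and 68.2% of coactivator and corepressor genes. Both lay above the 49.4% of all coding genes, so their side of the background turned with list length. The whole-list WT-only shares were 12.5% and 27.3%, against 11.5%.

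Markers of hormone-sensing luminal cells had a Y541S-only region at 3 of 17 members (17.6%) and a WT-only region at 2 (11.8%). The shares of all coding genes were 14.8% and 5.82%. The WT-only regions were 22.2 kb from Esr1 and 19.8 kb from Krt8, a luminal keratin gene (chr15:101976570-101977327), the latter at ranks 2561 and 12378 in WT and 20316 and 66396 in Y541S. The region linked to Krt8 was closest to Krt78. Over the whole lists 58.8% of these markers had a Y541S-only and 11.8% a WT-only region, against 49.4% and 11.5% of all coding genes. Luminal progenitor and alveolar markers had a Y541S-only region at 2 of 16 members (12.5%) and a WT-only region at 2 (12.5%). One of the Y541S-only regions lay 30.2 kb from Lalba, a milk protein gene (chr15:98512825-98513471), and was closest to Kansl2. Its ranks were 5485 and 4981 in Y541S and 21163 in WT replicate 1, with no peak in WT replicate 2. One of the WT-only regions lay 44.5 kb from Mfge8, the lactadherin gene. Whole-list shares of the luminal progenitor and alveolar markers were 43.75% for Y541S-only and 12.5% for WT-only regions.

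Markers of the other cell types of a whole gland also carried ERα regions. Shared regions were linked to 14 of 16 adipocyte, 9 of 16 basal, 8 of 14 fibroblast, 9 of 14 endothelial and 9 of 16 immune markers, against 50.7% of all coding genes. Y541S-only regions were linked to 2, 1, 3, 1 and 4 of them and WT-only regions to 0, 0, 0, 1 and 0. The Y541S-only shares were 12.5%, 6.25%, 21.4%, 7.14% and 25%, against 14.8% of all coding genes. The WT-only share of endothelial markers was 7.14%, against 5.82%. Whole-list Y541S-only shares were 75%, 50%, 64.3%, 50% and 62.5% in the same order, against 49.4% of all coding genes. The whole-list WT-only shares were 12.5%, 18.75%, 14.3%, 21.4% and 18.75%, against 11.5%. One Y541S-only region lay 25.8 kb from Dpt, a dermal matrix protein gene (chr1:164770677-164771059), at ranks 5870 and 9978 in Y541S and 20581 in WT replicate 1. Another lay 26.1 kb from Krt17, a basal keratin gene (chr11:100287006-100287327), at ranks 10146 and 15593 in Y541S and 26135 in WT replicate 1. Neither had a peak in WT replicate 2. The region linked to Krt17 was closest to Krt42. The part of the gland's cell composition in any genotype difference was not tested.

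Clusters of genotype-specific regions were small. No gene was linked to more than 3 Y541S-only regions, a number reached by 30 genes, among them Akr1b8, Bahcc1 and Caskin2. Bcam, Bcl3 and Cblc, which lie close together, shared their 3 regions. Dlc1, a gene of 385 kb, was linked to 5 WT-only regions and 1 Y541S-only region. The strongest, within Dlc1 (chr8:36732040-36732393), ranked 4385 and 5088 in WT and 21256 and 24697 in Y541S. Me1, the gene of cytosolic malic enzyme, was linked to 4 WT-only regions and its neighbour Prss35 to 3, of which they shared a pair. All WT-only regions of Me1 and Prss35 had a weaker peak in both whole Y541S lists. With whole-list classes Dlc1, Me1 and Prss35 had no WT-only region and Ppfibp2 had 2. Ppfibp2 was linked to 3 WT-only regions and 1 Y541S-only region with no WT peak.

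Replicates of a genotype were not always closer to each other than libraries of different genotypes. Among the 20000 strongest peaks, the 2 WT lists shared 9677 regions, the lowest number of the 6 pairs, and the 2 Y541S lists 12004. WT replicate 1 shared 12775 with Y541S replicate 1, the highest number, and 10793 with Y541S replicate 2. WT replicate 2 shared 10358 with Y541S replicate 1 and 10275 with Y541S replicate 2. Across the 7065 shared regions, the Spearman correlation of the ranks was 0.573 for the WT replicates, 0.551 for the Y541S replicates, 0.749 for the replicate 1 libraries and 0.525 for the replicate 2 libraries. Regions are not independent replicates, and these values are given as a description.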

How the data were processed

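ChIP-seq for ERα was analysed in whole mammary glands of WT and Y541S mice, 2 libraries each, with the 4 matching PR lists as a second readout. Per the labels' protocols, formalin-fixed chromatin was sheared to 300 to 500 bp, and 30 µg was precipitated with 4 µg of antibody. The authors deposited 1 peak list per library against mm10, a build given in the submitters' processing notes; the aligner and peak caller are not given in the sources used here. The deposited values are a whole-number score, a fold enrichment (a ratio), −log10 p, −log10 q and a summit offset per peak. They are not normalised between libraries, so they served only to rank and describe peaks within a list. Every deposited −log10 p was at least 2.

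From these values the whole-number coverage at each summit and its local expectation were recovered (tolerance 1e-04 on −log10 p), for at least 99.999% of peaks in each list. Background coverage is a low quantile of the expectation. Peaks were ranked by −log10 p, then fold, and merged at 1 bp of overlap. The width of a region in a library is the extent of its peaks there among the 20000 strongest. limma 3.58.1 in R 4.3.3 compared log2 rank and log2 width over all shared regions (threshold 0.05 after Benjamini-Hochberg adjustment) and was tested on simulated data. Library values were compared with two-sided exact permutation tests, which cannot go below 0.33. The design text calls the 2 replicates biological but leaves the animals in each unstated, so p-values measure only the spread between these libraries. Bedtools 2.31.1, Python 3.11.15, pandas 2.3.3 and scipy 1.17.1 were used.

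Genes, starts and promoters (250 bp before to 50 bp after the start) came from RefSeq tables of GRCm38.p6. Regions were ordered by their worst rank in the libraries of their class. Chromosome 18 was left out of shares at gene starts. A start counted within 1 kb, a link within 50 kb. No genome was used, so motifs were searched at promoters only and not around summits.

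The genes named are Esr1, Pgr, Greb1, Areg, Tnfsf11 and Wnt4; the closest genes of the 10 best-ranked regions of each genotype-specific class, of the 10 regions with the smallest p of the rank fit and the 5 of the width fit in each direction; the 8 and 4 genes with most Y541S-only and WT-only regions; and in each list at most 4 genes, those with the highest number of such regions. The 8 best-ranked shared regions, the regions without a peak in the other genotype and the promoters shown were chosen after their values were seen. Some genes that meet these rules are not reported here. The comparison, its members and the gene lists were chosen with earlier results of these data known. Alternatives were thresholds on −log10 p and q, coverage scaled to the shallowest library, 10000 or 5000 peaks, ranking by fold, an overlap of 50%, other distances, normal scores, a replicate block and leaving out each library.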

Additional observations from a re-analysis of the deposited data

How the results depend on the processing

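The 2 libraries per genotype limit every comparison; with coverage scaled to the shallowest library the log2 difference in peak number was 0.54 against 0.64. Same-numbered libraries are not stated to share animals or batches. With the replicate number as a block, limma still called 0 regions for rank and 0 for width, and the difference in log2 peak number was 0.56 within replicate 1 and 0.71 within replicate 2.

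Under the alternatives, 108 values of the comparisons kept their direction and side of the threshold, or stayed within 1.5 times for counts. Another 38 moved and 3 reversed. All 170 values of single regions also kept both, but these regions were picked for the smallest p. At each, both Y541S values lay beyond both WT values, so leaving out 1 library could not turn the direction. The replicate block leaves the difference unchanged by construction. Only the width settings below could turn the direction of a region. None did, though the log2 width difference at Xbp1 fell from 2.24 to 0.10 with all whole-list peaks. Reversals concerned small values: the whole-list difference in median width of 5.50 bp ran from −4.50 to 15.5 bp when a library was left out, being −4.50 bp without WT replicate 2 and −1.0 bp without Y541S replicate 1, and the difference in gene-start share became −0.40 points at 60000 peaks, an alternative chosen after seeing the data. With −log10 p of at least 5 the whole-list width difference was 50 bp and the difference in gene-start share −1.27 points. Whole-list classes moved to 857 WT-only regions at −log10 q of at least 1.3, to 4386 Y541S-only, 586 WT-only and 10978 shared regions at −log10 p of at least 5, and to 11212 shared regions with 50% overlap. The classes of the strongest peaks were 745, 451 and 3297 with 10000 peaks and 341, 247 and 1725 with 5000 (Y541S-only, WT-only, shared). Leaving out 1 library loosens the class of its own genotype by construction, so that genotype then had more regions than the other whichever of the 4 libraries was left out: whole lists gave 13482 to 65263 Y541S-only and 2471 to 30042 WT-only regions, and the strongest peaks 2805 to 6562 and 1345 to 7514, with shared regions from 20365 to 28858 and from 7707 to 9197. Listed genes linked to a Y541S-only region numbered 25 at 10 kb and 29 by closest gene, and those linked to a WT-only region 4 at 10 kb and 20 by closest gene. Against the 20000 strongest PR peaks, overlap fell by construction to 28.7% (WT PR) and 23.3% (Y541S PR) of shared, 15.6% and 16.4% of Y541S-only, and 20.5% and 17.9% of WT-only regions. In a promoter window of 100 bp a single arm of the estrogen response element stood in 3.92%, 3.89% and 7.78% of windows with shared, Y541S-only and WT-only regions.

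The width settings below were added after seeing the data. With all whole-list peaks of a region, both Y541S widths exceeded both WT widths at 24.8% of shared regions and fell below at 10.9%, and with the widest single peak at 28.3% and 9.85%; limma called 0 regions under both.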
